A study of Mus musculus with 2 samples.

Results

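Immediate early genes are the genes that a cell switches on first when it is stimulated, and in neurons they are a standard sign of recent activity. The genes described here are 10 of them that lie outside the AP-1 family: Egr1, Egr2, Egr3, Nr4a1, Nr4a2, Nr4a3, Arc, Npas4, Ier2 and Dusp1. They were chosen by name, after immediate early genes as a class had shown more Otp regions at their ends than genes of like length in this same peak list. Counts at the gene ends are therefore a description, and no test was made on them. All 10 were found among the 21887 protein-coding genes of the mouse RefSeq table. For each gene, every region with its summit within 50 kb of the gene was taken from both peak lists, which gave 19 of the 11379 Otp regions and 0 of the 291 IgG regions.

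The study used CUT&RUN, in which an antibody brings a nuclease to a chromatin protein and the DNA cut free is sequenced. It asks where Otp (Orthopedia), a homeodomain transcription factor of hypothalamic neurons, sits in the adult paraventricular nucleus (PVN). There are 2 libraries of wild-type PVN nuclei, labelled as neurons, 1 made with an Otp antibody and 1 with IgG, an antibody without a target that serves as the control. No treatment or stimulus is named for either, and the sources used here do not give strain, sex or the number of animals. Each antibody has 1 library, so a difference between antibodies cannot be set against replicates. The median Otp region held 13 tags (reads or fragments) at its summit, and the genome background was 5.87 times lower in the IgG library than in the Otp library. The assay does not measure expression, so marker genes check the neuronal label only loosely. Of 10 PVN and neuronal markers, Sim1, Trh, Snap25 and Syt1 had an Otp region within 1 kb of an end (40.0%, exact binomial interval 12.2 to 73.8%, against 26.2% of genes of like length), and Otp, Avp, Oxt, Crh, Slc17a6 and Rbfox3 had none. The lists for other cells are shorter. They had 1 of 5 GABAergic, 1 of 5 astrocyte, 1 of 6 oligodendrocyte, 0 of 5 microglial and 1 of 5 vascular or ependymal markers. In the same order, the shares in genes of like length were 28.4, 30.3, 27.6, 29.8 and 24.0%. The intervals are wide, 0.505 to 71.6% for 1 of 5 and 0 to 52.2% for 0 of 5. These counts therefore do not separate the cell types.

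Calcium entry and growth factor signals reach immediate early genes through kinases that act on factors already present on their promoters, CREB at cyclic AMP response elements and SRF with its ETS partners at CArG boxes. Transcription starts within minutes and needs no new protein. The products differ. EGR proteins are zinc finger transcription factors, NR4A proteins are orphan nuclear receptors, Npas4 is a neuron-specific basic helix-loop-helix factor, Arc is a synaptic protein that drives removal of AMPA receptors, Ier2 is a small nuclear regulator, and Dusp1 is a phosphatase that switches MAP kinases off. In the PVN these genes, like Fos, are used to trace neurons activated by stress, dehydration or feeding signals.

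Egr1, Arc and Dusp1 had an Otp region with its summit within 1 kb of an end. This is 3 of 10 genes (30.0%), close to the 27.2% of all protein-coding genes and to the 24.8% averaged over the genes of the members' own deciles of length. A share this near the background is no result about the members. The 3 inside the limit lay 103 bp (Arc), 252 bp (Dusp1) and 372 bp (Egr1) from an end, and the next ones lay just outside it at 1119 bp (Npas4) and 1282 bp (Ier2). No member had a summit within 100 bp of an end, where 15.4% of all genes had one. With a limit of 5 kb, the count was 7 of 10 genes, against 34.4% of all genes and 31.6% in the length deciles. The median distance from an end to the nearest Otp summit was 1508.5 bp over the members and 22389 bp over all genes. Within 50 kb, 9 of 10 members had at least 1 Otp region, against 63.6% of all genes.

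**Figure D1:**
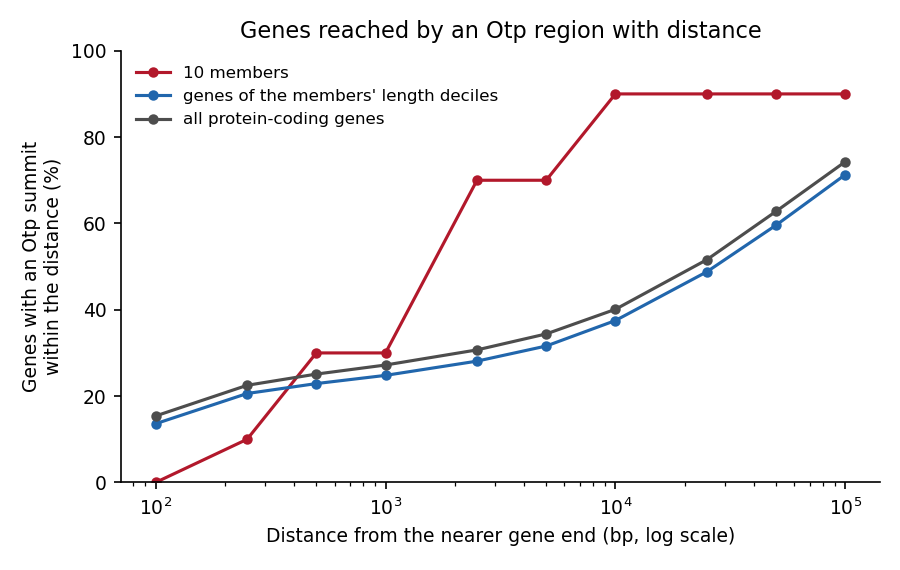
Share of genes (vertical axis, percent) whose nearer end has an Otp summit within the distance on the horizontal axis (bp, log scale), for the 10 members, for genes of the members' length deciles (mean over members) and for all protein-coding genes. The members lie at 30.0% at 1 kb, close to the other curves, and at 70.0% from 2500 bp, where all genes reach 30.7%; each step of the members' curve is made of whole genes out of 10.

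Of the 19 regions, 9 had a member as the protein-coding gene with the nearest end, and these are called a gene's own regions below. They belonged to 8 of the 10 genes. All 9 lay upstream of the start used here, which is the tabled start where there is one and otherwise the annotated gene end. The Npas4 region is upstream by its tabled start only, 12349 bp away. It lies inside the annotated gene, 1119 bp from an end, so by annotated ends it would not count as upstream. The RefSeq promoter table gives the strand for the genes of 4 of these regions (Nr4a1, Nr4a3, Npas4 and Dusp1), and for the genes of the others (Egr1, Egr3, Arc and Ier2) the strand is general knowledge. For those other genes the start was taken as the annotated gene end. Over all genes of that table, 65.2% of such own regions lay upstream, 24.0% inside past the start and 10.7% beyond the far end. Only the 4 of 4 regions placed by a tabled start can be set beside these shares, and they are too few to read as a difference. The other 10 regions lay nearer to another gene, and 7 of those were within 300 bp of that gene's end. Otp regions lie often at gene ends in this library. Within 1 kb of any protein-coding gene's end lay 11 of the 19 regions, against 48.7% of all nuclear Otp regions. The counts at neighbours are therefore a description and no trait of these loci.

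Egr1, Egr2 and Egr3 had 3, 1 and 2 regions within 50 kb. Egr1 (gene ID 13653, chromosome 18, positions 34861207 to 34864956) encodes the zinc finger factor also known as Zif268. It had the region with the most tags of all 19, on positions 34860806 to 34861172, with the summit 372 bp upstream of the gene. This summit held 25 tags (95% Poisson interval 16.2 to 36.9), with a fold enrichment of 8.06 and a −log10 q of 14.4, rank 2370 of 11379. At 367 bp the region was also the widest of the 19, and 4.12% of Otp regions were at least as wide. A weaker Egr1 region of 12 tags (6.20 to 21.0) lay 5776 bp upstream, and one of 11 tags (5.49 to 19.7) lay 20670 bp upstream at Reep2, 52 bp from an end of that gene, which encodes a protein that shapes the endoplasmic reticulum.

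Egr2 (gene ID 13654, chromosome 10, positions 67534469 to 67542188), known as Krox20 and best known for its role in myelinating glia and hindbrain, had no region of its own. Its only region within 50 kb lay 6844 bp beyond the far end, 77 bp from an end of Ado, the gene of a thiol dioxygenase, with 13 tags (6.92 to 22.2). Egr3 (gene ID 13655, chromosome 14, positions 70077317 to 70082613), a factor needed for muscle spindles, had the weakest of the 19 regions 2291 bp upstream. That region covered positions 70075006 to 70075096 with 8 tags (3.45 to 15.8), a fold enrichment of 4.63 and a −log10 q of 2.91, rank 11035 of 11379. A further region near Egr3, of 11 tags (5.49 to 19.7), lay 43 bp from an end of Bin3, a membrane-curving protein.

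The NR4A receptors bind DNA and activate transcription without a known ligand. Nr4a3 (NOR-1, gene ID 18124, chromosome 4, positions 48045078 to 48086447) had the region second in tags among the 19, on positions 48043285 to 48043524 and 1735 bp upstream of the gene. It held 20 tags (12.2 to 30.9), with a fold enrichment of 8.40, the highest of the 19, and a −log10 q of 12.6. The region at the opposite side of Nr4a3, 38437 bp beyond its far end, held 11 tags and lay 22 bp from an end of Stx17, a SNARE of autophagosomes. Nr4a1 (Nur77, gene ID 15370, chromosome 15, positions 101253902 to 101274795) had its own region at positions 101246373 to 101246460, 7493 bp upstream of the annotated gene and 20437 bp upstream of the start given in the promoter table. This region held 15 tags (8.40 to 24.7), and the 11 tags (5.49 to 19.7) at 9247 bp beyond the far end lay by Atg101, an autophagy gene, 259 bp from its end.

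Nr4a2 (Nurr1, gene ID 18227, chromosome 2, positions 57106830 to 57124003), needed for midbrain dopamine neurons, was the 1 member with no Otp region within 50 kb. Its nearest Otp summit was 505566 bp away, and an IgG summit lay 505568 bp away. The genes of its length decile had a median of 1 region within 50 kb, so Nr4a2 is below that median by 1 region.

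Arc (gene ID 11838, chromosome 15, positions 74669081 to 74672570) had the region closest to an end of a member. It covered positions 74672614 to 74672733 with its summit 103 bp upstream, and held 10 tags (4.80 to 18.4) at a fold enrichment of 5.32 and a −log10 q of 4.29. It was among the weaker regions, and 77.9% of Otp regions held at least as many tags. The second Arc region lay just inside the 50 kb limit, 48444 bp upstream, with 15 tags and 220 bp from an end of Them6, and the next region outside the limit over all members lay 56033 bp from Npas4.

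Npas4 (gene ID 225872, chromosome 19, positions 4984353 to 5003439), which neurons induce in answer to calcium entry alone, had its own region at positions 5002191 to 5002359. The summit lay inside the annotated gene, 1119 bp from its upper end, but 12349 bp upstream of the start in the promoter table, since the gene's annotated span reaches well beyond that start. It held 16 tags (9.15 to 26.0) with a fold enrichment of 7.80. The other 2 regions near Npas4 belonged to neighbours. One of 13 tags lay 136 bp from an end of Mrpl11, a mitochondrial ribosomal protein, and one of 14 tags lay inside Slc29a2, a nucleoside transporter, 8 bp from a start of it in the promoter table.

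Ier2 (gene ID 15936, chromosome 8, positions 84661331 to 84662852) had its own region at positions 84664102 to 84664177, 1282 bp upstream. With 18 tags (10.7 to 28.4) it came after Egr1 and Nr4a3 in tags, although it was 76 bp wide and 92.7% of Otp regions were at least as wide. Of its 2 other regions, one of 14 tags lay inside Cacna1a, a calcium channel subunit, 692 bp from its end. The other, of 15 tags, lay inside Trmt1, a tRNA methyltransferase, with the nearest gene end 1357 bp away at Nacc1.

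**Figure D2:**
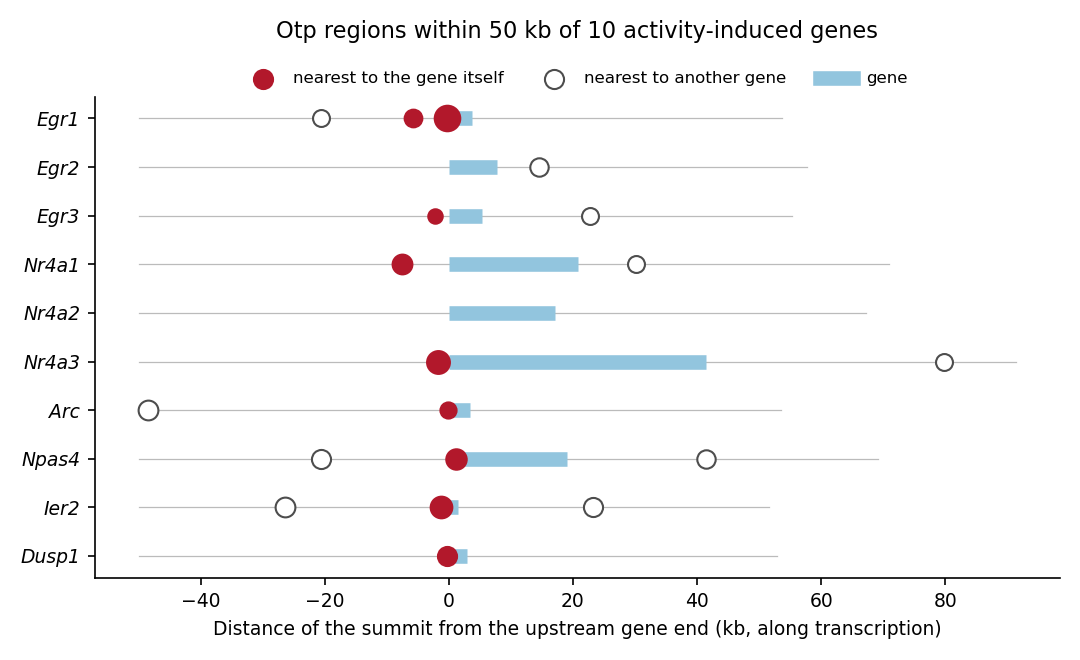
Otp regions (circles, area proportional to tags at the summit) within 50 kb of each of the 10 genes, by distance in kb from the annotated gene end on the upstream side (horizontal axis, upstream to the left, blue bar the gene). The tabled starts of Nr4a1 and Npas4 lie inside the bar. Filled circles, nearest to the gene itself, lie left of the gene except at Npas4, whose summit is 1119 bp inside the annotated gene; open circles, nearest to another gene, are scattered over both sides, and Nr4a2 has none.

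**Figure D3:**
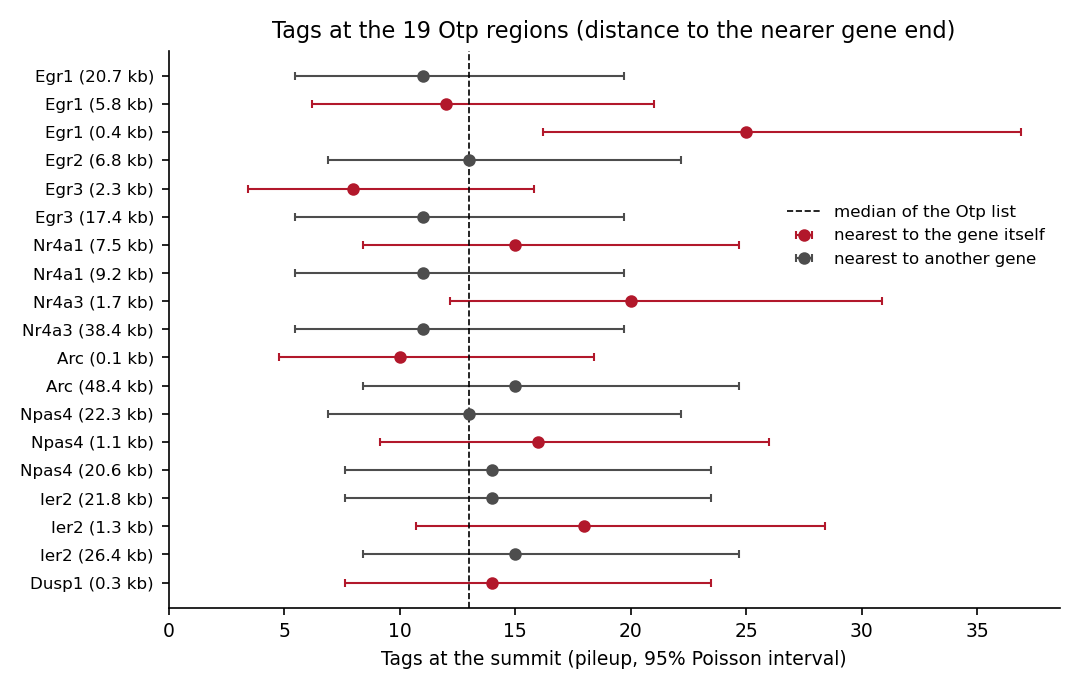
Tags at the summit of the 19 Otp regions (horizontal axis, points with 95% Poisson intervals), each named by its gene and its distance to the nearer end of that gene. The Egr1 region at 372 bp is highest with 25 tags and the Egr3 region at 2291 bp lowest with 8, and all intervals but that of Egr1 (16.2 to 36.9) include the list median of 13.

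As a set, the 19 regions were of middling strength for this library. They spanned 8 to 25 tags with a median of 14, and 12 of 19 held at least the list's median of 13. The median was 15 tags over the 9 own regions and 13 tags over the 10 nearer to another gene, with ranges of 8 to 25 and 11 to 15 that overlap. The widths ran from 72 to 367 bp with a median of 110 bp, against 131 bp over the list, and the fold enrichments ran from 4.63 to 8.40.

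The IgG list held no region within 1 kb of an end of any member, where 0.379% of all genes had one. Within 50 kb it also held none, against 1.72% of all genes, so an absence over 10 genes says little about them. None of the 19 Otp regions overlapped an IgG region, against 2.46% of all Otp regions, and the nearest IgG summit to any of the 19 was 71217 bp away. At the ratio of the 2 genome backgrounds (0.170), the 25 tags at Egr1 correspond to 4.26 tags in the IgG library, just above the 4 tags of its weakest region. The remaining 18 regions scale to 1.36 to 3.41 tags. At the median ratio of tags at 226 IgG regions that overlap an Otp region (0.305), 10 of 19 regions reach 4 tags, with Egr1 at 7.63, Nr4a3 at 6.11, Ier2 at 5.50 and Dusp1 at 4.27, and Arc at 3.05 does not. The number of regions at which a difference from IgG could have been detected thus depends on the scaling, 1 of 19 by the background and 10 of 19 by the shared regions. The ratio of 0.305 comes only from regions called in the IgG list, which were selected for high IgG tags. The ratio may therefore be too high for places without an IgG region. Each IgG region was also set against the highest Otp region over it, which can make the ratio too low. The direction of the error in the 10 of 19 is thus not known.

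Dusp1 (gene ID 19252, chromosome 17, positions 26505591 to 26508472) was the member whose region touches a promoter of known sequence. Its region covered positions 26508674 to 26508783, with the summit 252 bp upstream of the start, and held 14 tags (7.65 to 23.5) at a fold enrichment of 6.31 and a −log10 q of 6.92. It was the only region within 50 kb of Dusp1. The promoter table holds 6 of the 10 members, and of these Dusp1 alone had an Otp summit within 1 kb of a tabled start, against 29.5% of all protein-coding genes in the table. The 250 bases before the start are printed here to set the elements through which activity is known to reach these genes beside the place of the region. Capitals mark the core of the cyclic AMP response element (TGACG, or CGTCA where it lies on the other strand). The sequences run 5′ to 3′ in the direction of transcription (RefSeq, GRCm38.p6), Dusp1 from chr17:26508473-26508722 on the reverse strand.

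Dusp1: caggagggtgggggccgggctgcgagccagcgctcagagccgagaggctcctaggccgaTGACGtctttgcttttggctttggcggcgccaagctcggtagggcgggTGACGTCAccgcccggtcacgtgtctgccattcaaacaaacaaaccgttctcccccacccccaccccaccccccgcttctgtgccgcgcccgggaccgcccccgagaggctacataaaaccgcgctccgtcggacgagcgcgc

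The Dusp1 region covers only the first 49 of these bases and goes on upstream of them. Its summit lies 2 bases before the first base shown, so the full palindromic element TGACGTCA, whose first base is 143 bp before the start, and the other core at 191 bp before the start lie between the region and the start. The same stretch of Nr4a1, Nr4a2 and Npas4, which had no Otp region over it, is printed for comparison: Nr4a1 from chr15:101266596-101266845 on the forward strand, Nr4a2 from chr2:57124004-57124253 on the reverse strand and Npas4 from chr19:4989972-4990221 on the reverse strand. The tabled starts of Nr4a1 and Npas4 lie inside the annotated span of the gene.

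Nr4a1: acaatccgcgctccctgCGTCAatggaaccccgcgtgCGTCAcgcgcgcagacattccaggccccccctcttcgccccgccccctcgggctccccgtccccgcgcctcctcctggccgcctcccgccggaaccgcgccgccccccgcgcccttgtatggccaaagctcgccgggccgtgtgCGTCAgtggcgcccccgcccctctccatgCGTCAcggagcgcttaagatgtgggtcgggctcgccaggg

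Nr4a2: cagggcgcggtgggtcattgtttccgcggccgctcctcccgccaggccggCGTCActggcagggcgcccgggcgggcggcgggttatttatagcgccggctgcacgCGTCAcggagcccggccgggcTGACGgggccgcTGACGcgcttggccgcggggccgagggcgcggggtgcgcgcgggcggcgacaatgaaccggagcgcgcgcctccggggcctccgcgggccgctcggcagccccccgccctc

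Npas4: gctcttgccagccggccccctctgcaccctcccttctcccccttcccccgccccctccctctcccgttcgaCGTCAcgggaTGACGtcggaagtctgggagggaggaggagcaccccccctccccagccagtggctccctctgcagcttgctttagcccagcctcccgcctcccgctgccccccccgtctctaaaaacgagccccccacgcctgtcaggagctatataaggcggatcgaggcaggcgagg

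TGACG occurred in a window of all 6 members in the table (4 matches each in Nr4a1, Nr4a2 and Nr4a3, 3 in Dusp1 and 2 in Npas4 and in 1 of the 5 windows of Egr2), against 19.8% of all 27025 genes in the table. These windows, 1 for each of the 6 genes, are rich in G and C (61.6 to 80.0%, against a median of 52.4% over all windows), and among windows of at least 61.6% the core was found in 27.6%. The full element TGACGTCA, which contains TGACG, was found in Dusp1 alone, against 1.77% of genes, and the CArG box in Egr2 alone, against 1.62%. GGGCGG, the Sp1 motif, was in all 6 against 35.4%. The homeodomain palindrome TAATTA was in none, against 5.65%, and the core TAAT, which TAATTA contains, was in a window of Egr2, against 58.5%. GCGTGGGCG (bound by EGR proteins, 0.622% of genes) and AAAGGTCA (bound by NR4A proteins, 1.55%) were in none, and TATAAA was in Nr4a2 alone, against 14.3%. Except for TGACG, no share was computed among windows of like G and C content. The counts of the other motifs, GGGCGG and TAAT among them, therefore cannot be read as a difference from all genes. A match is letters only, on either strand of 250 bases, and is no evidence of binding.

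Some regions nearer to a neighbour lie on promoters in the table, and their sequence is the only sequence under Otp regions near these genes that the table gives apart from Dusp1. The stretches covered by a region, upstream of the tabled start, are those of Stx17 near Nr4a3 (chr4:48124843-48124918, forward strand, summit 35 bp before the start), Slc29a2 near Npas4 (chr19:5023926-5024005, forward strand, summit 8 bp before it) and Ado near Egr2 (chr10:67548968-67549170, reverse strand, summit 77 bp before it). Capitals mark TAAT, the core that homeodomain proteins bind.

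Stx17: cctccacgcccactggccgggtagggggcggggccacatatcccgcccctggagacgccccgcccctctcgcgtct

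Slc29a2: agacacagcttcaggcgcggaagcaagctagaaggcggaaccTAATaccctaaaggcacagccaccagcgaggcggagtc

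Ado: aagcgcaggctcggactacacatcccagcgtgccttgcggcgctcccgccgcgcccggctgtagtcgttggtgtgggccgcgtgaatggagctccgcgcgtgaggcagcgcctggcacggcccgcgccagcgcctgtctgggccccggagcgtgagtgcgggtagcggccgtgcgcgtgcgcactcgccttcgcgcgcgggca

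TAAT occurs once in the Slc29a2 stretch and in none of those of Stx17, Ado, Mrpl11, Atg101 or the 49 bases of Dusp1. In the same positions of all promoter windows it occurs in 22.6% (Slc29a2), 21.5% (Stx17), 48.4% (Ado), 26.1% (Mrpl11), 10.5% (Atg101) and 20.5% (Dusp1). These stretches were 53.7 to 76.3% G and C, and the shares are over windows of any G and C content.

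Set beside genes of like length, 7 members had more Otp regions within 50 kb than the median of their decile and 3 did not. The share of all genes above their own decile's median was not computed, so the 7 of 10 has no reference. Of the 19 regions counted, 10 lay nearer to another gene. Egr1, Npas4 and Ier2 had 3 regions each. In the decile of Ier2, the shortest genes, the median was 0 and 6.81% of genes had at least 3, and in those of Egr1 and Npas4 the median was 1 and 19.0% and 19.1% had at least 3. Egr3, Nr4a1, Nr4a3 and Arc had 2 regions each. That is above the median of 1 in their deciles, where 33.9 to 42.0% of genes had at least 2. Egr2 and Dusp1 had 1, the median of their deciles, and Nr4a2 had 0. The number of other protein-coding genes within 50 kb was 6 at Npas4, 5 at Ier2, 4 at Nr4a1 and Arc, 3 at Egr1, 2 at Egr3, 1 at Egr2, Nr4a2 and Nr4a3 and 0 at Dusp1. Its median was 2.5 over the members and 3 over all genes, and its part in the counts was not tested.

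**Figure D4:**
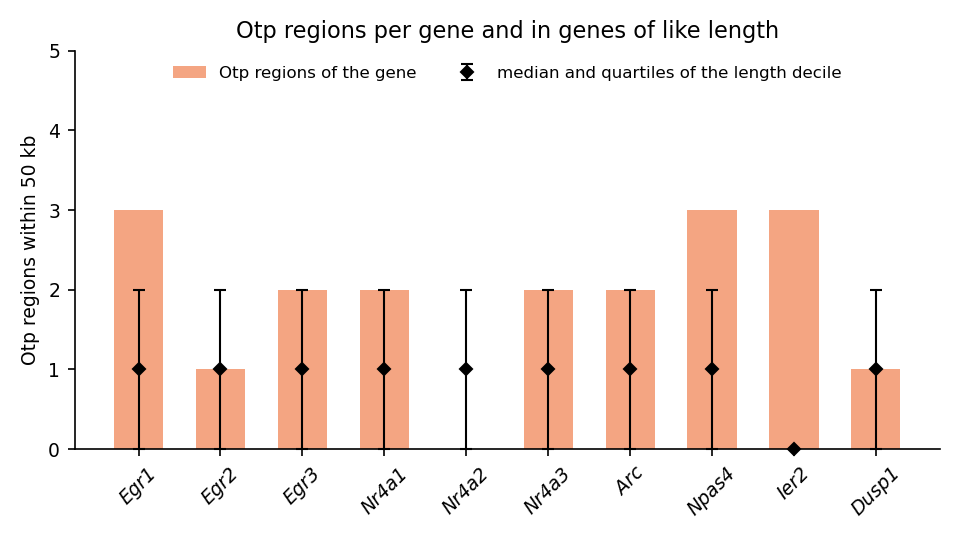
Number of Otp regions within 50 kb (bars) of each of the 10 genes, with the median and quartiles of the genes in the same decile of length (diamonds and lines). Egr1, Npas4 and Ier2 reach 3 regions, Nr4a2 has 0, and the median is 1 in all deciles shown except that of Ier2, where it is 0.

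Other genes of the same response were counted in the same way, in lists too short to set apart from the members, and no difference between lists was tested. At 1 kb each list had a higher share than the members, while within 5 kb the members had 7 of 10, against 11 of 18 relatives, 11 of 20 upstream genes, 9 of 11 partners and targets, 10 of 16 delayed genes and 5 of 7 AP-1 genes. Among 18 genes called relatives here, 10 had a region within 1 kb (55.6%, against 23.6% in genes of like length). This list joins genes and co-factors of the members' families with early genes of other families, Klf4, Klf6, Btg2, Gadd45b and Sik1 among them. The highest folds were at Klf6, a zinc finger factor, with 13.6 and 33 tags (22.7 to 46.3), and Dusp6, an ERK phosphatase related to Dusp1, with 10.6 and 26 tags (17.0 to 38.1). Ier5, a relative of Ier2, followed with 9.13 and 17 tags, and Dusp5, a nuclear ERK phosphatase, with 8.65 and 13 tags. Egr4 and the EGR co-repressors Nab1 and Nab2 had none. Gadd45b, a growth arrest gene, was the 1 relative that also had an IgG region at its end, and its Otp region overlapped that region.

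Upstream, 8 of 20 signalling genes had a region (40.0%, against 30.5%). Rps6ka5, the kinase MSK1 that phosphorylates CREB and histone H3, had a fold enrichment of 13.6 with 41 tags (29.4 to 55.6). Mrtfa, an SRF co-activator, had 12.9 with 31 tags, and the CREB co-activator Crtc2 had 7.79 with 19 tags. Creb1 itself had a region of 14 tags with its summit 52 bp from an end, and Srf had none within 1 kb. Among 11 partners and targets of the members' products, 7 had one (63.6%, against 31.6%). These included the MAP kinases that Dusp1 inactivates, Mapk14 (p38α) with 14.5 and 38 tags, Mapk9 (JNK2) with 13.1 and 34 tags and Mapk8 (JNK1) with 9.58 and 24 tags, though the Mapk14 region lay nearer to Slc26a8, 7 bp from its end. Arnt, a dimer partner of basic helix-loop-helix PAS factors, had 12.6 and 29 tags.

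Of 16 genes listed as the delayed response, 9 had a region (56.2%, against 28.5%). The name of this list is loose, since some of its genes are also induced directly and early, and timing was not measured here. Per1, a clock gene that CREB induces, stood highest with a fold enrichment of 14.8 and 75 tags (59.0 to 94.0). The pentraxin Nptx2 had 8.53 and 13 tags, the granin Scg2 had 7.60 and 15 tags, and Rgs4, a regulator of G protein signalling, had 7.57 and 13 tags. Bdnf had none within 1 kb. In the AP-1 family, 4 of 7 genes had a region at an end (57.1%, against 23.8%), and 2 of 7 where a −log10 q of at least 5 was asked, without Junb and Jund. The median distance from a gene end to the nearest Otp summit was 1508.5 bp for the members and larger, 2784 bp, for the upstream signalling genes. It was smaller in the other lists, 204.5 bp for the relatives, 113 bp for the partners and targets, 270 bp for the delayed genes and 155 bp for AP-1. These lists were made with earlier results of these data known and are no independent evidence.

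**Figure D5:**
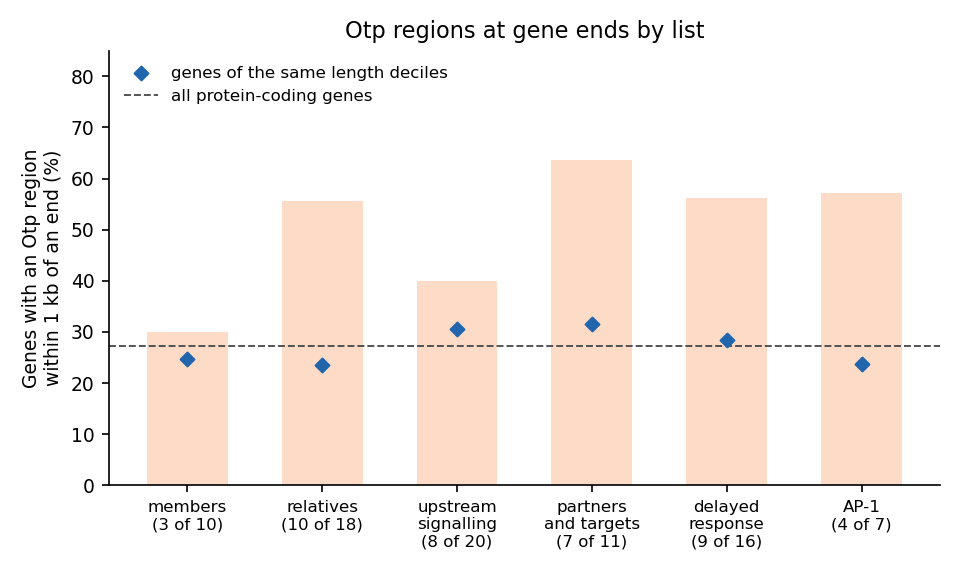
Percent of genes with an Otp region within 1 kb of an end (bars) in the 10 members and the lists of related genes, with the share in genes of the same length deciles (diamonds) and in all protein-coding genes (dashed line, 27.2%). The members' 30.0% lies near both references, and the bars of the other lists range from 40.0 to 63.6%.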

How the data were processed

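Otp and IgG CUT&RUN libraries were compared, 1 each, with groups taken from the antibody label. The tools that the submitters' processing notes name are MACS2, Bowtie2, Trimmomatic, Picard and SAMtools, on mouse build mm10. Their versions and settings, the treatment of duplicates and whether a control entered the peak calling are not given here. The authors deposited 1 peak list per library. Its fold enrichment is a ratio over the background that the caller estimated locally, and its significance columns, deposited by the authors, are −log10 p and −log10 q. The score column deposited for display was left aside. Total depth is unknown.

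Pileups (tags) were solved as the whole number that gives both the fold, (pileup + 1)/(background + 1), and the Poisson p, within 0.001 in −log10 p and with the next whole number missing by over 0.005. This gave 11182 Otp and 262 IgG values and all 19 near the members. The solver was tested on data simulated with the same formula, so the formula itself was not checked. The simulated backgrounds all lay above the IgG genome background, and the simulated pileups above that of the weakest IgG region. The genome background is the lowest value shared by at least 3 regions (0.512 tags for Otp, 0.0873 for IgG). Intervals are 95% Poisson intervals and cover counting error only, since PCR copies are not independent molecules.

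Gene positions and promoter windows (250 bases before to 50 after the start) came from RefSeq GRCm38.p6, the assembly of mm10. Distances run from the summit to the nearest point of a gene or, for gene ends, to the nearer end. Length deciles were formed over all protein-coding genes. Named genes were all members, the gene with the nearest end to each region and up to 4 genes per list by fold (1 is not reported here), and Egr4, Nab1, Nab2, Gadd45b, Creb1, Srf, Bdnf and the genes beyond 50 kb were named after their values were seen. Members and lists were chosen with earlier results of these data known. Recomputed settings were stricter thresholds, other windows, other overlap rules, another length match and a looser pileup match. Sequences are printed for a few genes only. The Egr2 window lies just past another tabled start and most of the Nr4a3 window lies inside the annotated gene, so both are described but not printed. Software was pandas 2.3.3, scipy 1.17.1, numpy 2.4.6 and Python 3.11.15.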

Additional observations from a re-analysis of the deposited data

How the results depend on the processing

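Of 31 values recomputed under alternatives, 24 stayed within the limits set for a change and 7 moved. The number of members with an Otp region at an end was 3 as reported and 3 with a fold enrichment of at least 5 or a window of 500 bp, 2 with a −log10 q of at least 5 (without Arc), and 1 with a −log10 q of at least 10, which is Egr1. It was 7 with a window of 5 kb, and 1 of the 6 genes with a tabled start when only the start was counted. The 19 regions within 50 kb became 2 when the −log10 q had to reach 10 (at Egr1 and Nr4a3), and 15 to 26 under the other thresholds and windows. The IgG list had 0 regions within 25 and 50 kb and 1 within 100 kb. AP-1 genes with a region fell from 4 to 2 when the −log10 q had to reach 5. The share in length-matched genes was 24.8% by decile, 26.3% by length within 20% and 22.9% within 500 bp. Whether the IgG library could show regions of few tags depends on the scaling. By the background 1 of the 19 regions reaches the tags of the weakest IgG region, and by the shared regions 10 of 19 do. No paired analysis was possible because the antibodies have 1 library each, which also leaves no library to omit.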

Other observations

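Between 50 and 100 kb from the members, 3 regions held more tags than any within 50 kb, 2 of them beyond the far end of Egr1 and 1 upstream of Npas4. A region at Hspa9, a mitochondrial chaperone, 89741 bp from Egr1 held 44 tags (95% Poisson interval 32.0 to 59.1) with a fold enrichment of 15.1. A region at Etf1, a translation release factor, 67157 bp from Egr1 held 27 tags (17.8 to 39.3), and it overlapped the 1 IgG region within 100 kb of any member, which held 6 tags (2.20 to 13.1). Near Npas4, a region at Yif1a, 84870 bp away, held 31 tags (21.1 to 44.0). Each of these exceeded the 25 tags of the highest region within 50 kb of a member, at Egr1, although their intervals overlap its interval of 16.2 to 36.9.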
